A study of Bos taurus with 24 samples.

Results

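The transcripts of 10 genes that package DNA or handle histones were followed through 24 single bovine oocytes. They are the oocyte linker histone H1FOO, the somatic linker histones HIST1H1C and HIST1H1E, the histone variants H2AFZ, H3F3A and H3F3B, the histone chaperones NPM2, NASP and ASF1A, and SLBP, which binds histone mRNA. The 10 genes were chosen by measured values, namely their levels and their differences between the groups, and were found by symbol. The 10 symbols gave 11 of the 17071 rows of the expression table, since H2AFZ stands on 2 rows (ENSBTAG00000016975 and ENSBTAG00000004428). Of these 11 rows, 10 reached a mean of at least 10 RPM (read counts scaled to the depth of the library) and entered the fit, so each of the 10 genes is represented.

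Each library held the RNA of 1 oocyte that had reached metaphase II, the stage at which a mature oocyte awaits fertilisation. All oocytes came from slaughterhouse ovaries, were stripped of cumulus cells at the germinal vesicle stage, were held for 16 h in the cyclin-dependent kinase inhibitor roscovitine, and were matured for 22 h in vitro. The siRNA injected group (12 oocytes) received a non-specific siRNA with a fluorescent dextran, and only fluorescent oocytes were cultured further. The non-injected group (12 oocytes) was cultured alike without injection, so the effects of the needle, the siRNA and the dextran cannot be told apart. Only oocytes with a polar body were sequenced, and the animal behind each oocyte is not given.

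Libraries were made by CEL-seq2, in which reverse transcription starts at the poly(A) tail and a random tag (unique molecular identifier, UMI) marks each molecule, so that its amplified copies count once. An RPM value is therefore a share of the molecules primed from a tail and does not grow with the length of a transcript. Depth ran from 204285 to 382077 UMIs per injected oocyte (median 274983) and from 134080 to 415554 per non-injected oocyte (median 288778), so that 1 UMI stood for 2.27 to 7.35 RPM. Non-injected oocytes 11 and 4 had the fewest UMIs. Of 12 oocyte markers, 10 had a row and all 10 had a mean of at least 10 RPM. Their summed level was 7541 to 8824 RPM in injected and 7804 to 9878 RPM in non-injected oocytes. GDF9 and BMP15, growth factors secreted by oocytes, had means of 351 and 148 RPM over the 24 oocytes. Of 14 cumulus and granulosa markers, 11 had a row and 5 reached 10 RPM, with a summed level of 150 to 253 RPM in injected and 148 to 229 RPM in non-injected oocytes. Those 5 were HAS2, a hyaluronan synthase (mean 86.4 RPM), INHBA (39.9 RPM), PTGS2 (25.5 RPM), CYP19A1 (15.8 RPM) and CD44 (10.2 RPM). Below 10 RPM, PTX3, a matrix protein of the expanded cumulus, had a mean of 2.01 RPM, and FSHR, CYP11A1 and FST were each above 0 in 1 oocyte.

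Linker histones bind where DNA enters and leaves the nucleosome and compact the fibre. Oocytes of mammals carry an own linker histone, H1FOO, which is replaced by somatic forms as the embryo begins to use its genome. Replacement variants such as those encoded by H3F3A and H3F3B are made throughout the cell cycle from polyadenylated mRNA, whereas most mRNAs of the replication-dependent histones end in a stem-loop instead of a poly(A) tail. SLBP binds that stem-loop and governs the processing, translation and decay of these mRNAs. Chaperones hold histones that are not on DNA and hand them to the chromatin, a store on which the first embryonic cell cycles draw. Neither the amount of an mRNA per oocyte nor its tail length was measured, so a level of a replication-dependent histone concerns its molecules that were primed from a tail.

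In order of their mean level over 24 oocytes the genes ran from H3F3A through H1FOO, NASP, NPM2, SLBP, H3F3B, HIST1H1C, HIST1H1E and ASF1A to H2AFZ. The first 5 were close together. H3F3A exceeded H1FOO by a mean of 0.10 ± 0.42 (SD over 24 oocytes) on the log2 scale (5 RPM added to each value here and in all log2 ratios), and the neighbours from H1FOO to SLBP also differed by less than 1 SD. SLBP stood above H3F3B by 0.47 ± 0.39, in 21 of 24 oocytes. A wider gap followed, since H3F3B stood above HIST1H1C by 1.65 ± 0.77 in 24 of 24 oocytes. HIST1H1C and HIST1H1E did not differ beyond their spread (0.05 ± 0.73, with HIST1H1C higher in 14 of 24 oocytes). HIST1H1E stood above ASF1A in 20 of 24 oocytes, by a mean of less than 1 SD (0.61 ± 0.85). ASF1A stood above the main H2AFZ row by 1.71 ± 0.61, again in 24 of 24 oocytes.

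**Figure D1:**
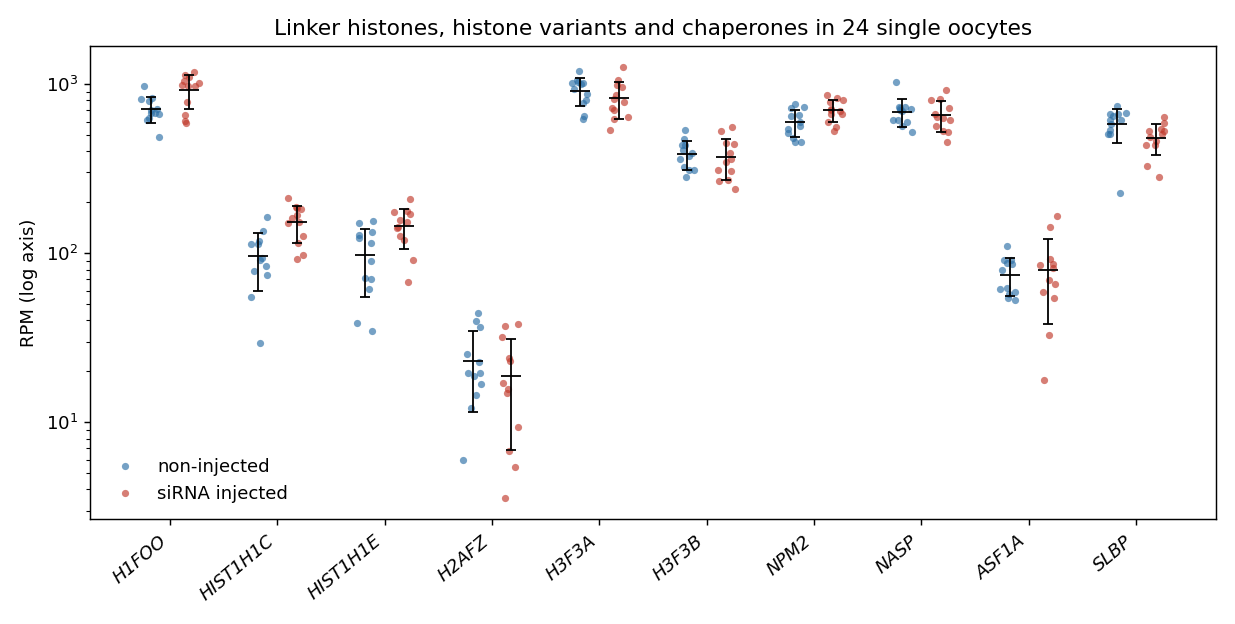
Level of the 10 genes in single oocytes (vertical log axis, RPM; one point per oocyte, blue non-injected and red siRNA injected, 12 each; horizontal bar mean, whiskers SD). H3F3A, H1FOO, NASP and NPM2 lie highest, HIST1H1C and HIST1H1E lie between them and H2AFZ, and the clouds of both groups overlap for every gene.

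The contrast between injected and non-injected oocytes was among the values that chose the 10 genes, so their differences are given as a description, and nothing is read from the counts that follow. With limma, 0 of 10 genes passed an adjusted p under 0.05 with a fold change over 1.2, where 0.221% of all 7230 tested genes did. At an unadjusted p under 0.05, 4 of 10 were past the line (H1FOO, HIST1H1C, HIST1H1E and NPM2, each higher in injected oocytes) and 12.5% of all genes. On recovered UMI counts edgeR called 0 of 9 against 1.22% of all genes, and DESeq2 called 1 of 9 (HIST1H1C) against 3.03%. All log2 differences below are injected minus non-injected on the log2(RPM + 5) scale, which understates changes of low genes, with the standard error (SE) from limma. The median over all tested genes was 0.02.

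H1FOO (ENSBTAG00000001812), the linker histone of the oocyte, ranked 162 among all genes by mean level. In injected oocytes it ranged from 586 to 1183 RPM with a median of 983, and in non-injected oocytes from 485 to 969 RPM with a median of 688. The groups overlapped, but 8 of 12 injected oocytes lay above the highest non-injected oocyte, and 3 (injected oocytes 1, 3 and 8) lay below the non-injected median. The means were 920 ± 208 and 714 ± 125 RPM (SD, n = 12 each), a log2 difference of 0.35 (SE 0.12). Leaving out any 1 oocyte moved this value between 0.30 and 0.40.

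HIST1H1C (ENSBTAG00000011677), a somatic linker histone of the replication-dependent cluster, was far lower in level. Injected oocytes held 91.7 to 212 RPM (median 158) and non-injected oocytes 29.4 to 163 RPM (median 92.7). Of the injected oocytes 11 of 12 lay above the non-injected median and 5 above every non-injected oocyte, and 6 non-injected oocytes lay below every injected one. The lowest value, in non-injected oocyte 11, rested on 4 UMIs. The means were 153 ± 38.0 and 95.7 ± 36.1 RPM, and the log2 difference of 0.71 (SE 0.19) was the largest of the 10 genes. Without any 1 oocyte it stayed between 0.58 and 0.78.

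HIST1H1E (ENSBTAG00000047206), another somatic linker histone of that cluster, had almost the same level as HIST1H1C. Its range was 67.9 to 208 RPM in injected (median 148) and 34.6 to 155 RPM in non-injected oocytes (median 102). Again 5 injected oocytes lay above all non-injected ones, and 3 non-injected oocytes lay below all injected ones. The means were 144 ± 38.8 and 97.3 ± 41.9 RPM, a log2 difference of 0.63 (SE 0.21). Despite the same mean level, the log2 ratio of HIST1H1C to HIST1H1E varied from -2.21 to 1.29 between oocytes.

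Among molecules primed from a tail, H1FOO was set against the somatic forms in each oocyte, with all linker histones that had a row. Besides H1FOO these were HIST1H1A, HIST1H1C, HIST1H1D and HIST1H1E of the replication-dependent cluster, the replacement linker histone H1F0, and H1FX, which was above 0 in 1 oocyte only. H1FOO made up 44.6% ± 10.1 (SD, n = 24) of the summed linker histone RPM, from 21.5% in injected oocyte 1 to 62.5%. The share was 43.3% ± 11.1 in injected and 45.9% ± 9.30 in non-injected oocytes, a difference smaller than the spread. HIST1H1A followed with 36.0% ± 9.93, ahead of HIST1H1C with 6.52%, HIST1H1E with 6.46%, H1F0 with 3.45% and HIST1H1D with 2.99%. The somatic share therefore lay mostly with HIST1H1A and not with HIST1H1C or HIST1H1E. Histone mRNAs without a tail are outside these shares and the ratios below, so total mRNA of the forms cannot be compared.

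**Figure D2:**
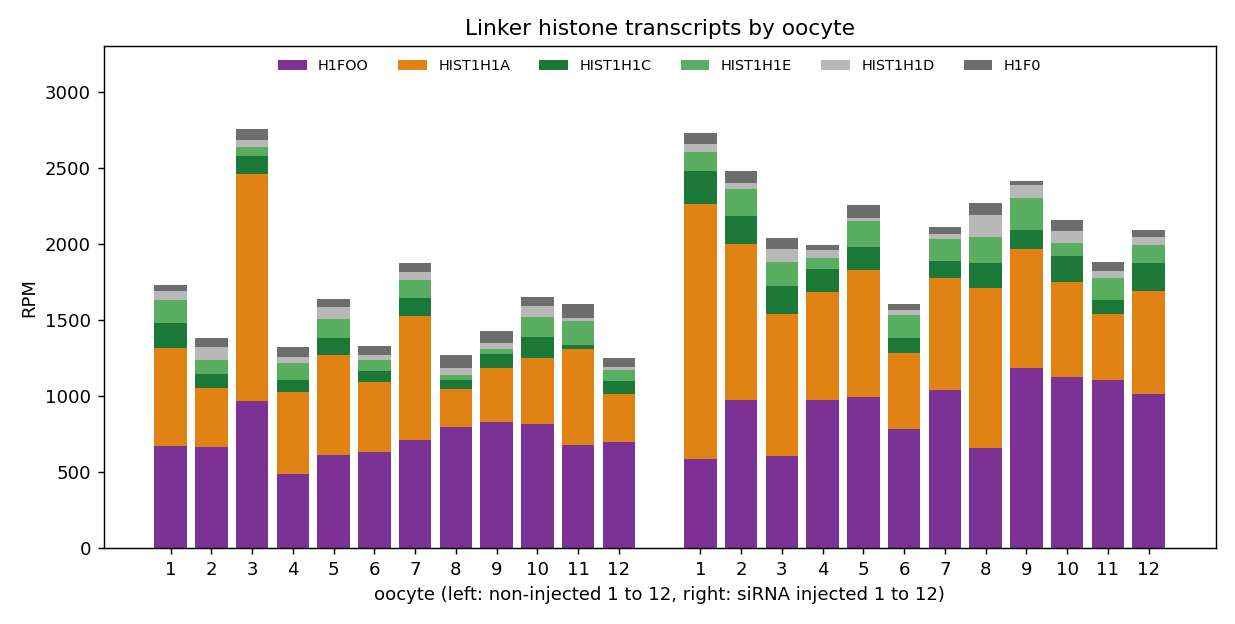
Linker histone transcripts in each oocyte (bars, RPM, stacked by gene; left 12 non-injected, right 12 siRNA injected). H1FOO and HIST1H1A fill most of each bar, and non-injected oocyte 3 and injected oocyte 1 stand out through HIST1H1A at 1491 and 1677 RPM.

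Set against the sum of the somatic forms, H1FOO had a mean log2 ratio of -0.42 ± 0.70 (SD, n = 12) in injected and -0.24 ± 0.54 in non-injected oocytes. It exceeded the somatic sum in 2 of 12 injected and 3 of 12 non-injected oocytes. The picture turned when HIST1H1A, HIST1H1D and H1F0 were left out of the sum, since H1FOO exceeded HIST1H1C and HIST1H1E together in 24 of 24 oocytes, by 1.60 ± 0.51 in injected and 1.91 ± 0.58 in non-injected oocytes. With HIST1H1A alone left out, the ratio was 1.12 ± 0.54 and 1.22 ± 0.41, with H1FOO ahead in 24 of 24 oocytes. Against HIST1H1A alone the ratio was 0.20 ± 0.78 and 0.44 ± 0.70, with H1FOO ahead in 16 of 24 oocytes.

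HIST1H1A (ENSBTAG00000046621) had a mean of 581 ± 331 RPM without injection and 831 ± 327 RPM with it, a log2 difference of 0.59 (SE 0.20) that did not pass the test (limma, adjusted p = 0.194). Without non-injected oocyte 3 the non-injected mean was 499 ± 175 RPM (n = 11). HIST1H1D was at 61.7 ± 32.3 and 48.8 ± 21.1 RPM (log2 difference 0.27, limma adjusted p = 0.676). H1F0 was at 57.7 ± 20.3 and 64.6 ± 14.5 RPM (log2 difference -0.20, limma adjusted p = 0.703). Of these 3 other somatic linker histones 0 passed the test (0.221% of all genes did; edgeR and DESeq2 also called 0 of 3) and 1, HIST1H1A, had an unadjusted p under 0.05 (12.5% of all genes did).

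Summed over all linker histones, injected oocytes held 1606 to 2725 RPM (median 2134) and non-injected oocytes 1252 to 2752 RPM (median 1514). Of the injected oocytes 12 of 12 lay above the non-injected median, and 7 non-injected oocytes lay below the lowest injected one. The means were 2168 ± 293 and 1602 ± 414 RPM, and without non-injected oocyte 3 the non-injected mean was 1497 ± 210 RPM. The somatic forms alone summed to 1247.5 ± 381 and 888 ± 353 RPM. These sums hold genes that the choice of the 10 genes rested on, so they were not tested.

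Across oocytes the correlations among linker histones lay on both sides of 0. Over the 15 pairs of 6 linker histones, the correlation of log2 levels after removing the group means had a median Pearson r of -0.10 (n = 24 oocytes). It ran from -0.29 for H1FOO with HIST1H1E to 0.50 for HIST1H1C with HIST1H1D. HIST1H1A and HIST1H1C had an r of 0.44, and H1FOO and HIST1H1A an r of -0.24. Levels of 1 oocyte share a library and its depth, and RPM values compete for a fixed sum, so these values only describe the oocytes.

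H3F3A and H3F3B encode the same replacement variant of histone H3, which enters chromatin outside of DNA replication and is in mice a main source of H3 for the paternal genome after fertilisation. H3F3A (ENSBTAG00000024561) ranked 146 among all genes. It ranged from 534 to 1254.5 RPM in injected (median 801) and from 625 to 1193 RPM in non-injected oocytes (median 966), and 9 of 12 injected oocytes lay below the non-injected median. The means were 827 ± 207 and 912 ± 173 RPM, a log2 difference of -0.15 (SE 0.13).

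H3F3B (ENSBTAG00000024909) ranged from 241 to 556 RPM in injected (median 355) and from 281 to 533 RPM in non-injected oocytes (median 382). The groups overlapped, with 3 injected oocytes below and 1 above all non-injected ones, and with means of 373 ± 102 and 387 ± 75.2 RPM and a log2 difference of -0.08 (SE 0.13). H3F3A exceeded H3F3B in 24 of 24 oocytes, by a mean log2 ratio of 1.19 ± 0.37.

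H2AFZ, the H2A variant found at promoters and needed for early mouse development, was the lowest of the 10 genes. Its main row (ENSBTAG00000016975) ranged from 3.57 to 38.2 RPM in injected (median 16.3) and from 6.0 to 44.1 RPM in non-injected oocytes (median 19.6). The means were 18.9 ± 12.0 and 23.0 ± 11.5 RPM, a log2 difference of -0.30 (SE 0.28), and single oocytes rested on 1 to 16 UMIs. The second row (ENSBTAG00000004428) was above 0 in 6 of 12 injected and 7 of 12 non-injected oocytes, at 2.36 ± 3.27 and 2.79 ± 3.07 RPM, and was not tested. The sources used here do not say how reads of near-identical copies were divided between the rows, so the split is uncertain. H2AFX, the H2A variant that is phosphorylated at DNA breaks, was at 332 ± 109 and 305 ± 90.8 RPM (log2 difference 0.12, limma adjusted p = 0.809). It exceeded the main H2AFZ row in 24 of 24 oocytes, by a mean log2 ratio of 3.73 ± 0.93. H2AFX was the 1 other variant that was tested, and it did not pass.

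Replication-dependent core histones had 20 rows above 0, of which 8 were tested and 0 passed (limma, also 0 at an unadjusted p under 0.05, and 0 of the 4 that edgeR and DESeq2 each tested). Over all tested genes the limma shares were 0.221% and 12.5%, and edgeR called 1.22% and DESeq2 3.03%. HIST2H2AB and HIST4H4 reached the mean of 10 RPM only through the injected group. Fitted without the filter, 19 of the 20 rows had a log2 difference above 0 and 1 (HIST1H4E) below, with a median of 0.17, and most of them rested on a few UMIs per oocyte. The median over all genes in that fit was 0.03. The share of all genes above 0 in that fit is not given here. With the filter, all 8 tested rows lay above 0, HIST2H2AB and HIST4H4 among them, beside 3841 of all 7230 tested genes. Nothing is read from these counts. Whether the core histones differ as a set was not tested. HIST2H2AB had a log2 difference of 0.57 (limma adjusted p = 0.494), HIST1H2AJ of 0.42 (adjusted p = 0.573) and the row ENSBTAG00000032456 of HIST2H2AC of 0.24 (adjusted p = 0.616). The more abundant second HIST2H2AC row (ENSBTAG00000046003) had 567 ± 203 RPM without and 593 ± 250 RPM with injection (log2 difference 0.03, limma adjusted p = 0.967). As for H2AFZ, the split of reads between the 2 rows is uncertain. The 20 rows summed to 1255 ± 362 RPM without injection and to 1445 ± 591 RPM with it. Injected oocyte 3 alone held 2881 RPM, and without it the injected mean was 1315 ± 399 RPM (n = 11). Of the 8 tested rows, that oocyte was the highest of its group in all but HIST1H2AJ and HIST1H2AI, where injected oocyte 2 was.

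NPM2 (ENSBTAG00000046918) is nucleoplasmin, the oocyte chaperone that loosens sperm chromatin after fertilisation in frogs and mice. It ranged from 525 to 864 RPM in injected (median 702) and from 452 to 759 RPM in non-injected oocytes (median 582). Of the injected oocytes 4 lay above all non-injected ones, and 4 non-injected oocytes lay below all injected ones. The means were 701 ± 107 and 594 ± 110.3 RPM, a log2 difference of 0.24 (SE 0.11). NPM2 exceeded its paralogue NPM3 by a mean log2 ratio of 4.20 ± 0.88, in 24 of 24 oocytes.

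NASP (ENSBTAG00000015346), which protects a soluble pool of H3 and H4 and also binds linker histones, ranged from 454 to 923 RPM in injected (median 634) and from 519.9 to 1023 RPM in non-injected oocytes (median 697). The groups overlapped, with 2 injected oocytes below all non-injected ones and 1 non-injected oocyte above all injected ones. The means were 657 ± 138 and 685 ± 128 RPM, a log2 difference of -0.07 (SE 0.12).

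ASF1A (ENSBTAG00000002058) passes H3 and H4 to the factors that place them on DNA. It ranged from 17.8 to 165 RPM in injected (median 75.7) and from 52.9 to 110.0 RPM in non-injected oocytes (median 70.7). The injected oocytes spread beyond the non-injected ones on both sides, with 2 below and 2 above. The means were 79.4 ± 41.6 and 74.3 ± 18.9 RPM, while the mean of the log2 values was lower in injected oocytes by a difference of -0.05 (SE 0.22). The direction thus depended on the scale, and the sign of the log2 difference changed in 5 of 32 alternative settings. The paralogue ASF1B was more abundant in 24 of 24 oocytes, by a mean log2 ratio of 3.28 ± 0.77.

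Of 29 other tested chaperones and assembly factors 0 passed the test (limma, adjusted p under 0.05), beside 0.221% of all tested genes. On recovered UMI counts edgeR called 0 of the 25 it tested and DESeq2 0 of the 22 with an adjusted p. At an unadjusted p under 0.05, 4 were higher and 2 lower, beside 12.5% of all tested genes in either direction, and the median log2 difference of the 29 was -0.03. NAP1L4, a chaperone of H2A and H2B, had 86.1 ± 14.5 RPM without and 117 ± 30.2 RPM with injection (log2 difference 0.39, limma adjusted p = 0.250). CABIN1, a subunit of the HIRA complex that deposits the H3 variant, had 33.9 ± 10.3 RPM without and 49.0 ± 13.0 RPM with injection (log2 difference 0.48, limma adjusted p = 0.257). VPS72, which delivers H2AFZ protein to its exchange complex, had 706 ± 119 RPM without and 589 ± 126 RPM with injection (log2 difference -0.27, limma adjusted p = 0.321). The most abundant were RBBP7, a histone binding subunit of several complexes, with a mean of 1483 RPM, ASF1B with 749 RPM and CHAF1A, a subunit of the assembly factor CAF, with 656 RPM. CHAF1B, its partner, had a mean of 10.1 RPM, and HIRA itself a mean of 4.50 RPM and was above 0 in 9 injected and 7 non-injected oocytes.

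**Figure D3:**
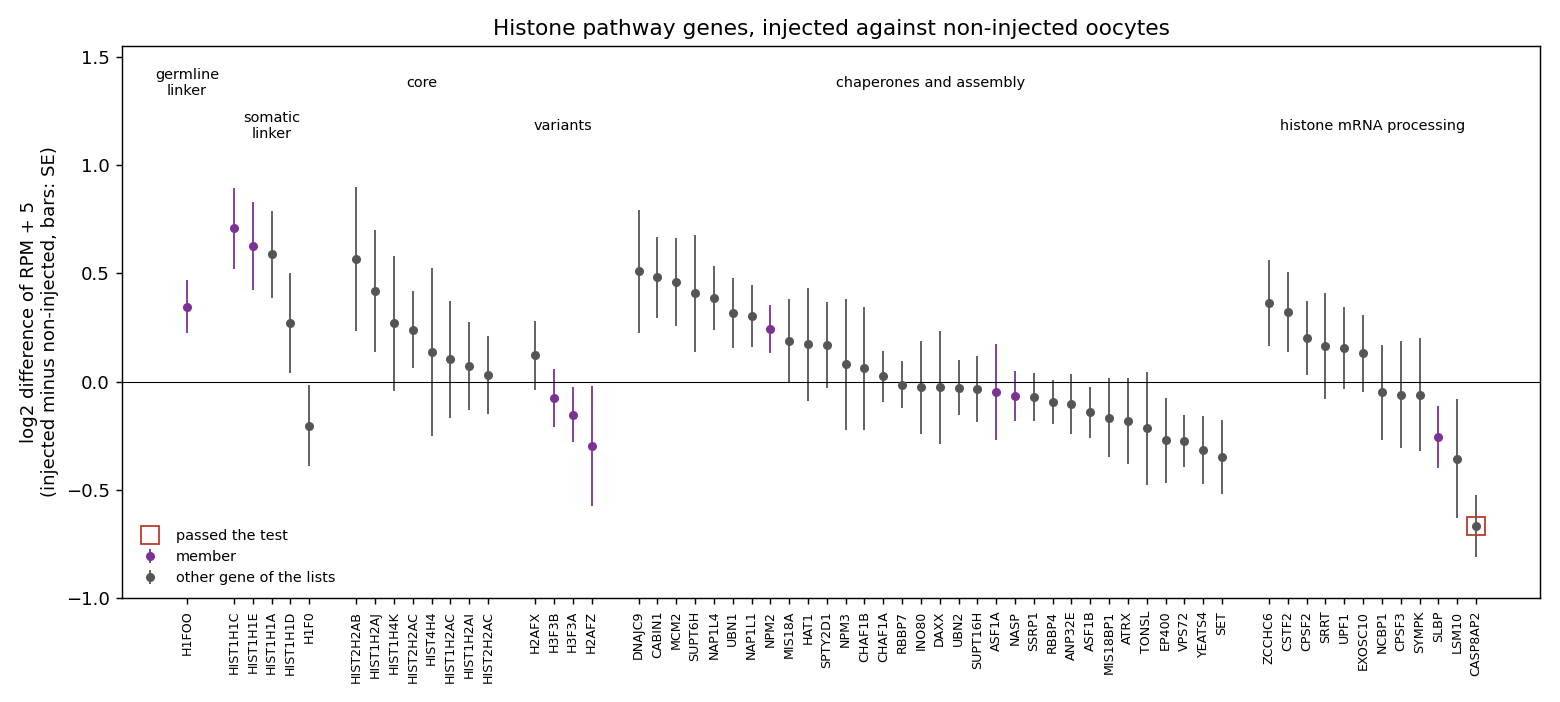
Log2 difference, injected minus non-injected, of every tested gene of the 6 histone lists (vertical axis, log2(RPM + 5); points estimates, bars SE; purple the 10 chosen genes, grey the others). HIST1H1C, HIST1H1E and HIST1H1A lie highest among the linker histones, the chaperones lie on both sides of 0, and CASP8AP2 at -0.67 is the 1 gene that passed the test. The lists were chosen with earlier results of these data known.

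SLBP (ENSBTAG00000001328), the stem-loop binding protein, ranged from 281 to 637 RPM in injected (median 497) and from 227 to 740 RPM in non-injected oocytes (median 612). Of the injected oocytes 11 of 12 lay below the non-injected median, and 5 non-injected oocytes lay above all injected ones, while the lowest value of all belonged to non-injected oocyte 3. The means were 480 ± 101 and 581 ± 132 RPM, a log2 difference of -0.26 (SE 0.14). Without any 1 oocyte it stayed between -0.37 and -0.19.

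Of 11 other tested genes of histone mRNA processing and decay 1 passed the test, beside 0.221% of all tested genes. The lists were chosen with earlier results of these data known, so nothing is read from this count. CASP8AP2, also called FLASH, which brings the cleavage machinery to histone transcripts, fell from 255 ± 51.0 RPM in non-injected to 162 ± 47.1 RPM in injected oocytes (log2 difference -0.67, SE 0.14, limma adjusted p = 0.0384, with 11 of 12 injected oocytes under the non-injected median). The adjusted p was 0.0761 without the filter on low values and 0.0507 to 0.0699 when 1 of 11 oocytes was left out (non-injected 1, 3, 4, 8, 10 or 11, or injected 6, 7, 9, 10 or 12). ZCCHC6, a uridylyltransferase of RNA tails, had a log2 difference of 0.36 (limma adjusted p = 0.463) and CSTF2, a cleavage factor, of 0.32 (adjusted p = 0.486). Of the others NPAT, the activator of histone gene transcription, had a mean of 8.09 RPM and LSM11, a part of the small nuclear particle that cuts histone transcripts, of 7.31 RPM, so neither was tested.

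SLBP and HIST1H1A tended to opposite directions across oocytes. Non-injected oocyte 3 had the lowest SLBP level (227 RPM) and the highest HIST1H1A level of its group (1491 RPM). In the injected group oocyte 1 had the highest HIST1H1A level (1677 RPM) and the second lowest SLBP level (327 RPM). At the other end, non-injected oocyte 8 had the highest SLBP level (740 RPM) and the lowest HIST1H1A level (253 RPM). Injected oocyte 9 departed from this order, with the lowest SLBP level of its group (281 RPM) and HIST1H1A at 784 RPM, near the group median of 759. After removing the group means, Pearson r was -0.73 and Spearman rho -0.59 (n = 24). Within the groups r was -0.53 and rho -0.38 in injected oocytes, and r was -0.84 and rho -0.75 in non-injected oocytes (n = 12 each). Without non-injected oocyte 3 r was -0.56 (n = 23), and without injected oocyte 1 as well it was -0.45 (n = 22). Depth differed too, with 206452 UMIs in non-injected oocyte 3, 206150 in injected oocyte 1 and 415554 in non-injected oocyte 8. The deepest injected oocyte, 11 (382077 UMIs), had the lowest HIST1H1A level of its group (436 RPM). The shallowest non-injected oocytes, 11 and 4 (134080 and 162879 UMIs), had HIST1H1A at 631 and 540 RPM. A relation to depth was not tested.

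**Figure D4:**
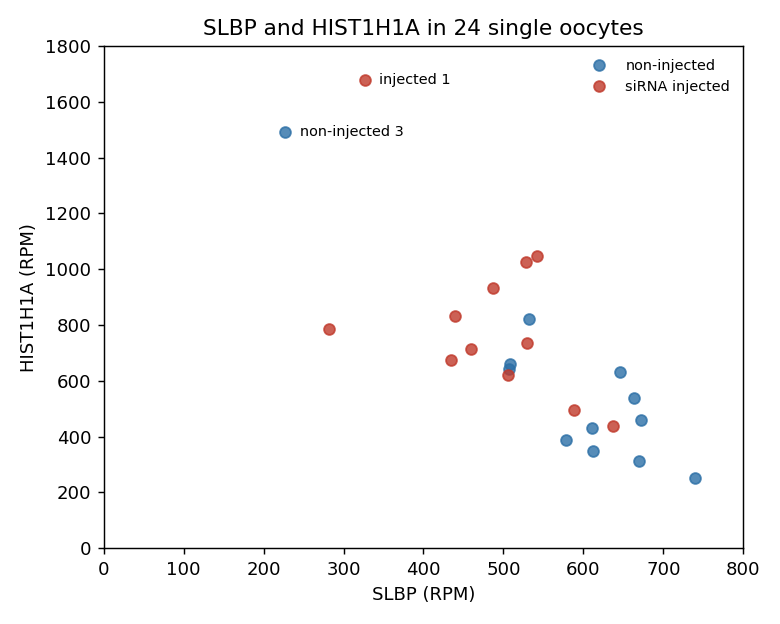
HIST1H1A level (vertical axis, RPM) against SLBP level (horizontal axis, RPM), one point per oocyte, blue non-injected and red siRNA injected. Oocytes with less SLBP tended to hold more HIST1H1A (Spearman rho -0.75 in non-injected and -0.38 in injected oocytes), with non-injected oocyte 3 and injected oocyte 1 at the upper left.

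Compared over all 7229 other tested genes, whose median r with SLBP was 0.03, HIST1H1A had the lowest Pearson r. By Spearman's measure 52 genes were lower, and without non-injected oocyte 3 there were 50 lower by Pearson, so the first place rested on that oocyte. Without injected oocyte 1 as well, 174 genes were lower. Within the injected group 255 genes had a lower Pearson r, and within the non-injected group 2 had. The other linker histones had r of -0.43 (HIST1H1C), -0.22 (H1FOO), -0.17 (HIST1H1D), -0.04 (HIST1H1E) and 0.23 (H1F0) with SLBP, and the summed core histones an r of -0.21. By Pearson over all 24 oocytes the gene most like SLBP was GTF2B, a general transcription factor, with an r of 0.90, and its r was 0.92 in the injected and 0.89 in the non-injected group. By Spearman 10 genes ranked above it, and within the non-injected group 20 genes did. Without non-injected oocyte 3 NDUFA6, a respiratory chain subunit, came first at 0.84 against 0.81 for GTF2B. The pair SLBP and HIST1H1A and the genes GTF2B and NDUFA6 were picked after the values were seen, and no p is given for them.

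Among the 10 chosen genes themselves, the 45 pairs had a median r of -0.04. The highest was 0.58, for ASF1A with H2AFZ, and the lowest -0.43, for HIST1H1C with SLBP. Without injected oocyte 4 the r of ASF1A with H2AFZ was 0.45 (n = 23). That oocyte was the lowest of its group for 4 of the 10 genes (HIST1H1E, H2AFZ, H3F3A and ASF1A), though its UMI count (268444) was not among the lowest. It had the fewest genes above 0 of its group (9864), close to injected oocytes 10 (9867) and 1 (9878). Among the oocyte markers it was the lowest of its group for GDF9, BMP15, ZP2, ZP4, FIGLA and NLRP5, but not for NOBOX, KPNA7, MOS or OOEP.

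The spread between oocytes differed by gene. NPM2 varied least, with a coefficient of variation (SD as a percentage of the mean over 24 oocytes, groups together) of 18.5%, followed by NASP with 19.5% and H3F3A with 22.1%. H3F3B, SLBP and H1FOO had 23.2%, 23.8% and 24.2%. HIST1H1C, HIST1H1E and ASF1A had 37.4%, 38.2% and 41.2%, and H2AFZ had 55.9%. Counting of UMIs alone would give 7.54% for NPM2, 17.2% for HIST1H1C and 42.0% for H2AFZ. HIST1H1A had a coefficient of variation of 49.0% at a level where counting alone would give 7.22%, while H1FOO at a like level had 24.2%.

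**Figure D5:**
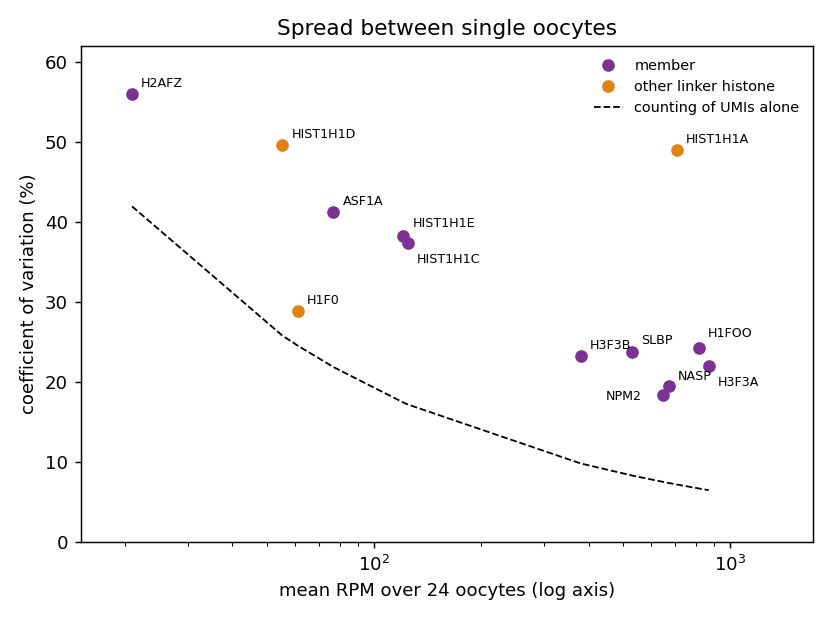
Coefficient of variation over 24 oocytes (vertical axis, %) against mean level (horizontal log axis, RPM), purple the 10 chosen genes, orange 3 other linker histones, dashed line the spread expected from counting UMIs alone. HIST1H1A at 49.0% stands well above the genes of like level, and H2AFZ at 55.9% lies nearest to the line in relative terms of the chosen genes.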

How the data were processed

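Single bovine oocytes (12 siRNA injected, 12 non-injected) were sequenced by CEL-seq2. The authors mapped reads to a cDNA library, collapsed those that shared gene and UMI, and deposited RPM values, with UMD3.1 as the genome build in the submitters' processing notes. The authors compared groups with DESeq2. The aligner was not given in the sources used here. Titles and genotype labels gave the groups, since the treatment label does not vary. PIWIL3 siRNA oocytes were not analysed here. The 153 rows without a gene ID were left out of the tests. Their share of RPM was 0.284% ± 0.121 (SD, n = 12) without and 0.318% ± 0.228 with injection.

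The main test was limma 3.58.1 (eBayes with trend, R 4.3.3) on log2(RPM + 5). Genes needed a mean of 10 RPM or more, p was adjusted over all of them by Benjamini-Hochberg, and a call needed an adjusted p under 0.05 with a fold change over 1.2. After reversing the adjustment for repeated UMIs, RPM was turned back into UMI counts (100% whole within 0.001), which gave the depth. edgeR 4.0.16 and DESeq2 1.42.0 ran on them as alternatives only. Other pseudocounts, filters, TMM scaling, a replicate block and leaving out each oocyte were also tried. Values without non-injected oocyte 3 or injected oocytes 1, 3 or 4 were added after seeing the data, except in the limma fits. The fit was tested on simulated data.

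The 10 genes and the lists were chosen with earlier results of these data known. Named are the 10 genes, every list gene that passed, up to 3 others per list with the smallest p, and the defining markers GDF9, ZP3, BMP15, PTX3, HAS2 and TNFAIP6 (ZP3 and TNFAIP6 matched no row). Other genes were named after their values were seen. Oocytes of a shared animal are not marked, so p-values measure only the spread between these oocytes. Symbols are those of the table. For 9 of the 10, RefSeq annotation ARS-UCD2.0 had a gene of that name or synonym, such as H1-8 for H1FOO. HIST1H1E matched only as a synonym, of H1-12, and H3F3B had no match. No sequence was used.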

Additional observations from a re-analysis of the deposited data

How the results depend on the processing

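The 16 calls over all genes became 9 with a pseudocount of 1 RPM and 26 with 20 RPM, 0 without a filter on low values, 52 with a filter of mean 30 RPM, 52 with edgeR and 111 with DESeq2. Leaving out 1 oocyte gave 0 to 42 calls. There were 0 without non-injected oocyte 10 or 11, 1 without non-injected 8 or injected 10, 2 without injected 6, 9 or 12, 5 without non-injected 1 or injected 1, 9 without injected 7, 10 without non-injected 3 or 12, 25 without non-injected 2 or injected 3, and 42 without injected 4. The 1 call among the other histone genes (CASP8AP2) became 0 without the filter, and 0 to 1 when 1 oocyte was left out. The causes were not tested. The log2 ratio of H1FOO to the somatic linker histones moved to 1.60 in injected and 1.91 in non-injected oocytes when only HIST1H1C and HIST1H1E were summed, and to 1.12 and 1.22 when HIST1H1A alone was left out (added after seeing the data).

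Of the 10 genes, 9 kept the sign of their log2 difference in the alternatives run (32 each, but 30 for H2AFZ, which the 30 RPM filter and edgeR left out), and ASF1A changed it in 5 of 32. The filters and the replicate block cannot change the estimate, and most other settings leave out 1 oocyte. The differences were among the values that chose the genes, so the kept signs are only a description. Same-numbered oocytes of both groups showed little tendency to deviate together (r from -0.13 to 0.17, over 0.1 in 2 of 12 pairs). Weak correlation cannot exclude that they shared an origin, and the main fit did not pair them. The fit with a replicate block called 11 of 7230 tested genes, CASP8AP2 and 1 of the 10 chosen genes (HIST1H1C) among them. HIST1H1C was chosen by its values, so nothing is read from its call. Depth limits H2AFZ most, with as little as 1 UMI in an oocyte.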

Other observations

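Among the histone genes that did not reach a mean of 10 RPM, 26 rows were above 0. Fitted without the filter, 0 of these had an adjusted p under 0.05 (limma) and 3 an unadjusted p under 0.05. In that fit 0 of all genes were called, and with the filter 12.5% of all tested genes had an unadjusted p under 0.05. Nothing is read from the count of 3. HJURP, the chaperone of the centromeric H3 variant, had 4.43 ± 4.32 RPM without and 12.5 ± 5.96 RPM with injection (SD, n = 12 each), and 11 of 12 injected oocytes exceeded the non-injected median. IPO4, an importer of H3 and H4, had 4.97 RPM without and 11.3 RPM with injection. HIST1H4E was above 0 in 1 injected and 8 non-injected oocytes. They were picked after their values were seen, and most rest on a few UMIs per oocyte.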
